A study of Mus musculus with 6 samples.

Results

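The collagens described here are the chains of all classes that a mouse gene array measured in primary keratinocytes and in mouse embryonic fibroblasts (MEFs). A gene was included when a probe set of the deposited value table was paired with exactly 1 symbol made of Col, a number, the letter a and a number. This gave 38 probe sets for 38 genes, of 10261 genes with a probe set of 1 symbol. A RefSeq gene table lists 44 symbols of this form, and Col4a3, Col4a6, Col6a4, Col19a1, Col26a1 and Col28a1 were not analysed here. The measured chains comprised 11 fibrillar chains, 8 FACIT chains, 5 of beaded filaments, 4 of the basement membrane, 4 transmembrane chains, 3 of short-chain networks, 2 multiplexins and the anchoring fibril chain Col7a1.

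Total RNA was hybridised to 6 arrays of the Affymetrix MoGene-1_0-st type, of which 3 carry the label keratinocytes and 3 the label MEFs. The keratinocytes came from back skin taken from newborns (postnatal day 0) and were grown in a keratinocyte medium, and the MEFs came from E13.5 embryos and were grown in a serum medium. Neither culture was treated. The genotype and strain of the keratinocyte donors are not stated, the methods name C57BL/6J for the MEFs, and the isolation protocol in the labels names DR-4 as the strain desired. That protocol pools several embryos after removal of the head and inner organs, so that the cultures can hold several kinds of connective tissue cell. Cell type, age of the donors, isolation and medium differ together and cannot be told apart. The labels number the arrays of each group as biological replicates without saying whether they came from separate animals, so that p-values measure the spread between these arrays only.

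Collagens are secreted or membrane-bound proteins whose chains wind into a helix built from glycine repeats. Fibrillar collagens form the tensile fibres of the dermis, tendon, bone and cartilage and are made by fibroblasts, osteoblasts and chondrocytes. FACITs decorate these fibres, type VI collagen forms beaded filaments around cells, and type IV collagen forms the sheet of basement membranes. In skin, basal keratinocytes are anchored to the dermis by the transmembrane collagen of hemidesmosomes, encoded by Col17a1, and by the anchoring fibrils of type VII collagen, encoded by Col7a1.

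The cell type labels were first set against Cdh1, which encodes the epithelial adhesion protein E-cadherin, and Vim, which encodes the mesenchymal filament protein vimentin. The log2 signal of Cdh1 was 3.33, 2.16 and 3.26 on the keratinocyte-labelled arrays, against 8.62, 8.59 and 8.73 on the MEF-labelled arrays. That of Vim was 11.93, 11.97 and 12.03 on the keratinocyte-labelled arrays, against 3.81, 3.92 and 3.78 on the MEF-labelled arrays. Both genes ran against the labels, with no overlap of the groups (p = 0.1 for each in a two-sided exact permutation test, which 3 arrays against 3 cannot go below). Of 7 further keratinocyte markers, 7 were higher on the MEF-labelled arrays, as were 41.7% of all genes. The log2 of the summed signal of these markers was 5.78 to 5.97 on the keratinocyte-labelled arrays and 13.89 to 13.93 on the MEF-labelled arrays. Of 7 further fibroblast markers, 7 were higher on the keratinocyte-labelled arrays, as were 32.9% of all genes. The log2 of the summed signal of these was 11.76 to 11.82 there and 5.44 to 5.51 on the MEF-labelled arrays. The labels may therefore be exchanged, which was not tested beyond these markers. Each direction below holds for the arrays as labelled, and with exchanged labels each would belong to the other cell type.

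Values are log2 RMA signals, and each difference is the mean of the keratinocyte-labelled arrays minus that of the MEF-labelled arrays, with its standard error (SE) from limma. A gene was called when its Benjamini-Hochberg adjusted p was under 0.05, and a gene named with a difference passed this test unless it is said not to have. A gene was taken as above background on an array when it exceeded a level set by 10 probe sets of olfactory receptors, their 95th percentile. That level was 5.49 to 5.92 on the keratinocyte-labelled arrays and 6.05 to 6.58 on the MEF-labelled arrays. The 10 probe sets are those the deposited table holds with 1 symbol, and receptors absent from that table do not enter the level. This level is rough and high: it rests largely on Olfr1174, which itself stood at 5.82, 6.31 and 5.36 on the keratinocyte-labelled arrays and at 7.19, 6.66 and 7.52 on the MEF-labelled arrays. Where all arrays of a group lay below it, the fold given is the least it could be, written as at least, and none is given where that came to less than 1 or both groups lay below. A log2 difference of such a gene is given as measured.

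Of the 38 collagen genes, 31 were higher on the keratinocyte-labelled arrays, 4 were higher on the MEF-labelled arrays and 3 did not pass. Over all 10261 genes, 74.5% were called, with 32.9% of all genes higher on the keratinocyte-labelled arrays and 41.7% of all genes higher on the MEF-labelled arrays. The 4 genes of the minority direction were Col17a1, Col18a1, Col7a1 and Col4a4. The median difference was 0.97 over the collagen genes and -0.12 over all genes. At a log2 difference of 1 or more, 19 collagen genes were higher on the keratinocyte-labelled arrays, where 14.1% of all genes were, and 3 on the MEF-labelled arrays, where 14.4% were. The 2 groups of arrays did not overlap for 37 of the 38 collagen genes, and for 78.4% of all genes. The array signals were bulk values, in which fewer cells of a type and less RNA per cell cannot be told apart.

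Of the collagen genes, 23 or 24 were above background on each keratinocyte-labelled array, against 7 on each MEF-labelled array. On all keratinocyte-labelled arrays 21 of the 38, or 55.3%, were above it, beside 55.6% of all genes, and on all MEF-labelled arrays 7, or 18.4%, beside 43.4% of all genes. On no array were 12 of the 38 above it, or 31.6%, beside 26.8% of all genes. These were Col24a1 and Col11a2 of the fibrillar class, Col22a1, Col9a1, Col9a2 and Col20a1 of the FACITs, Col6a5 and Col6a6, Col4a4, Col15a1, Col25a1 and Col13a1. Among them are 10 of the 35 called genes, with differences between 0.31 and 1.46 in size, and their signals lie in the range where olfactory receptor probe sets lie too.

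**Figure D1:**
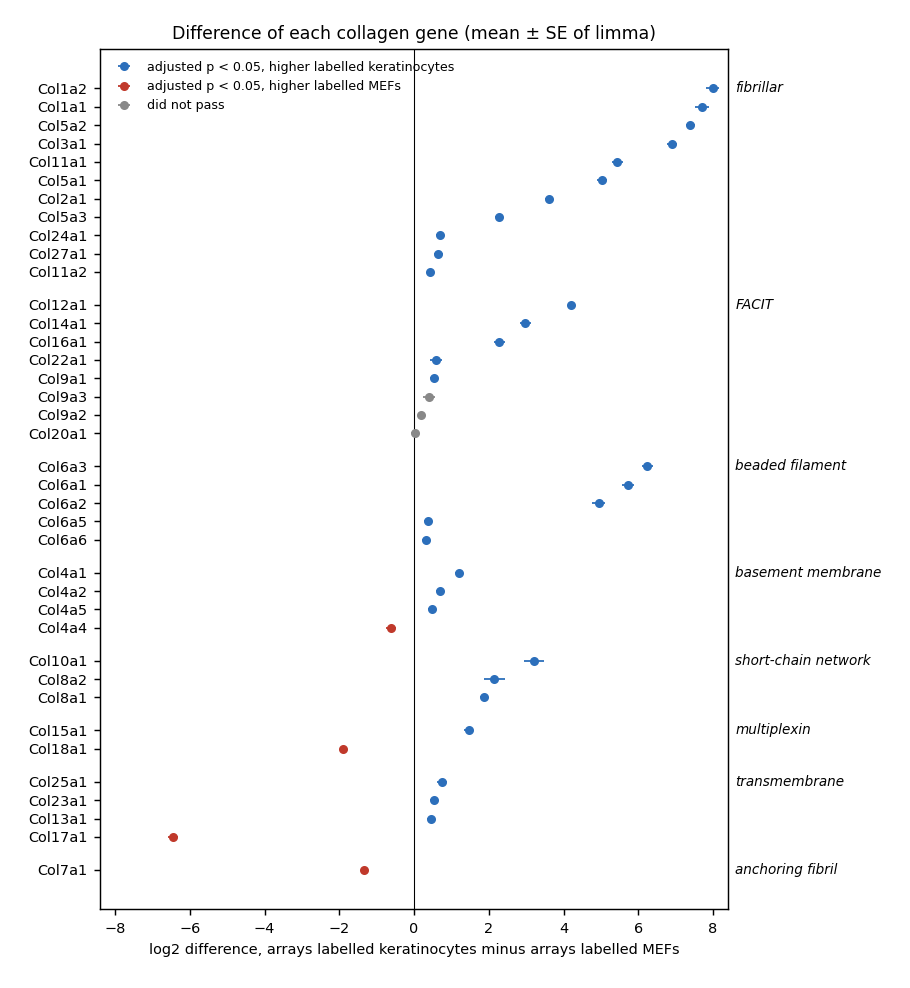
Log2 difference of the 38 collagen genes (horizontal axis, keratinocyte-labelled arrays minus MEF-labelled arrays, n = 3 each), grouped by class, with points for the limma estimate, bars for its SE and colours for the call. The 11 fibrillar and 5 beaded filament chains all lie right of 0, while Col17a1, Col18a1, Col7a1 and Col4a4 lie left of it. Of all 10261 genes, 4645 had a positive difference.

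The regions before the start of 4 genes are shown because these genes stand for both directions: Col1a2 and Col3a1 were among the genes with the highest differences, and Col17a1 and Col7a1 had the sign of the minority. Each line gives the 250 bases before the start annotated by RefSeq on GRCm38.p6, read 5′ to 3′ on the strand of the gene. Capitals mark matches on either strand. The motif TATAAA is the core of the box that positions transcription in many genes. The motif CCAAT is bound by nuclear factor Y, and GGGCGG is the GC box of Sp factors. The motif TGANTCA is the element of the AP-1 factors.
Col1a2, chr6:4505368-4505617, plus strand: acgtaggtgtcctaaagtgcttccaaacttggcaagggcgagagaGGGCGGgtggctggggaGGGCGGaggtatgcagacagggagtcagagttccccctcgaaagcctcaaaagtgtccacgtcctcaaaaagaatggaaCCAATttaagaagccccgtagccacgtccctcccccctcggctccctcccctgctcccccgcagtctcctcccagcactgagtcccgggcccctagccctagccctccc
Col3a1, chr1:45311288-45311537, plus strand: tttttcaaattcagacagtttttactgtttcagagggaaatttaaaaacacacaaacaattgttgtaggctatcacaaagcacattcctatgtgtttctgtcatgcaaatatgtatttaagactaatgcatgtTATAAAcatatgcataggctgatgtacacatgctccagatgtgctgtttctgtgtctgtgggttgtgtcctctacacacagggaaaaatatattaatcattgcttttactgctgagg
Col17a1, chr19:47692043-47692292, minus strand: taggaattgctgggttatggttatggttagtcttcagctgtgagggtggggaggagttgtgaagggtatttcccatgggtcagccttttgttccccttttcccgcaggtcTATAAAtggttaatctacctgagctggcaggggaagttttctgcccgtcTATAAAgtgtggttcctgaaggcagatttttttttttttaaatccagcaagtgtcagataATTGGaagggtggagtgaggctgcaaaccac
Col7a1, chr9:108953336-108953585, plus strand: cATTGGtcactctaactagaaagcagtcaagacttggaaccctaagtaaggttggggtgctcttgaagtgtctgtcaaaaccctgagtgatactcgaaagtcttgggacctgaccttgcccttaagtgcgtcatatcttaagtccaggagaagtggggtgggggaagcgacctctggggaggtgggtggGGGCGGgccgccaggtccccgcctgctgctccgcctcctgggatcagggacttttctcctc
These sequences differ in composition, with G and C making up 62.0% of the bases before Col1a2, 35.2% before Col3a1, 46.0% before Col17a1 and 56.4% before Col7a1. The window of Col1a2 held a CCAAT match and 2 GC box matches, and that of Col7a1 1 match of each. Col3a1 had 1 TATAAA match and Col17a1 had 2, beside a CCAAT match on the opposite strand. A window was found for 31 of the 38 genes, 34 windows in all, and none of the 4 motifs contains another. GGGCGG occurred in 20 of the 34 windows, 58.8%, and in 32.7% of the 32851 windows of all genes. CCAAT occurred in 12 of the 34, or 35.3%, beside 33.8% of all windows, TATAAA in 5, or 14.7%, beside 12.4%, and TGANTCA in 1, or 2.94%, beside 6.75%. The median share of G and C was 60.0% over the collagen windows and 52.4% over all windows. These matches are a description of the letters and say nothing of whether a factor binds there.

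All 11 measured fibrillar chains were higher on the keratinocyte-labelled arrays, as were 32.9% of all genes. The median difference of the chains was 5.04. In 8 of them it was at least 1 on the log2 scale, as in 14.1% of all genes in this direction. Type I collagen, the main fibre of skin and bone, is assembled from the products of Col1a1 and Col1a2. Col1a1 had log2 signals of 12.57, 12.61 and 12.56 on the keratinocyte-labelled arrays, against 4.41, 5.05 and 5.15 on the MEF-labelled arrays. The keratinocyte-labelled arrays were at least 73.2-fold higher (difference 7.71, SE 0.18, limma adjusted p = 7.39e-09). Col1a2 stood at 12.49, 12.48 and 12.37 on the keratinocyte-labelled arrays and at 4.65, 4.02 and 4.70 on the MEF-labelled arrays. It was at least 66.8-fold higher, and its difference of 7.99 (SE 0.18) ranked 9 from the highest of all 10261 genes, with Col1a1 at rank 12. Both chains were above background on all 3 keratinocyte-labelled arrays and on none labelled MEFs.

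Col3a1 encodes the type III collagen of elastic tissues such as skin and vessels. It stood at 10.90, 10.92 and 10.65 on the keratinocyte-labelled arrays, against 4.04, 3.70 and 4.01 on the MEF-labelled arrays, at least 21.7-fold higher (difference 6.91, SE 0.13, limma adjusted p = 2.66e-09). Its neighbour on chromosome 1, Col5a2, encodes a chain of type V collagen, which sets the diameter of type I fibres. Col5a2 stood at 10.46, 10.49 and 10.20 on the keratinocyte-labelled arrays and at 3.13, 3.06 and 2.78 on the MEF-labelled arrays, at least 16.0-fold higher (difference 7.39, SE 0.13). Of the other chains of type V collagen, Col5a1 had 9.47, 9.35 and 9.21 on the keratinocyte-labelled arrays, against 4.37, 4.04 and 4.50 on the MEF-labelled arrays, a difference of 5.04 (SE 0.14). The 3 type V chains thus shared a direction. Col5a3, the least widespread of them, had 6.36, 6.58 and 6.29 on the keratinocyte-labelled arrays and 4.02, 4.20 and 4.21 on the MEF-labelled arrays, with a difference of 2.26 (SE 0.11) and a bound of only 1.02-fold.

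The remaining fibrillar chains are known best from cartilage. Col2a1, the chain of the main cartilage fibre, stood at 8.68, 8.78 and 8.57 on the keratinocyte-labelled arrays, against 5.16, 5.09 and 4.95 on the MEF-labelled arrays, at least 4.89-fold higher (difference 3.61, SE 0.10, limma adjusted p = 1.59e-08). Col11a1, whose product sits in the core of cartilage fibres, had 9.38, 9.15 and 8.90 on the keratinocyte-labelled arrays and 3.75, 3.51 and 3.85 on the MEF-labelled arrays, at least 6.76-fold higher (difference 5.44, SE 0.15). Its partner Col11a2 differed by 0.43 (SE 0.10), with 4.96, 5.16 and 4.92 on the keratinocyte-labelled arrays and 4.67, 4.51 and 4.56 on the MEF-labelled arrays. Col11a2 was above background on no array, so that the partners were unlike in level of detection. Of 9 chondrocyte markers listed, 4 were measured. Acan, Sox5 and Comp were higher on the keratinocyte-labelled arrays, but none of these was above background on any array. The fourth, Sox9, was lower there, with 7.03 ± 0.07 on the keratinocyte-labelled arrays and 7.88 ± 0.06 on the MEF-labelled arrays (SD, n = 3 each). The log2 of the summed signal of these 4 markers was 7.43 to 7.62 on the keratinocyte-labelled arrays and 7.94 to 8.04 on the MEF-labelled arrays. Most of this sum is the signal of Sox9, so that its direction is that of 1 gene, against the other 3. The part of cartilage cells in the values of Col2a1 and Col11a1 was not tested. Col24a1 and Col27a1, chains of fibrillar collagens of bone and cartilage, differed by 0.71 (SE 0.11) and 0.65 (SE 0.13). Col27a1 stood at 5.57, 5.96 and 5.75 on the keratinocyte-labelled arrays, against 5.24, 4.97 and 5.11 on the MEF-labelled arrays, and Col24a1 at 4.61, 4.47 and 4.35 on the keratinocyte-labelled arrays, against 3.86, 3.64 and 3.81 on the MEF-labelled arrays.

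FACIT chains attach to the surface of fibres. Of 8 measured, 5 were higher on the keratinocyte-labelled arrays, where 32.9% of all genes were. On the MEF-labelled arrays 0 were higher, beside 41.7% of all genes, and 3 did not pass. Col12a1, which is made where fibres bear load, was the only FACIT above background on all 6 arrays, by a narrow margin on the MEF-labelled ones. It stood at 10.93, 10.85 and 10.75 on the keratinocyte-labelled arrays, against 6.59, 6.59 and 6.72 on the MEF-labelled arrays, 18.5-fold higher (difference 4.21, SE 0.09, limma adjusted p = 5.61e-09). Col14a1, a FACIT of dermis and tendon, had 5.87, 5.82 and 5.88 on the keratinocyte-labelled arrays and 2.95, 3.11 and 2.57 on the MEF-labelled arrays, a difference of 2.98 (SE 0.14) at signals close to background. Col16a1, found at the edge of dermal and cartilage fibres, had 6.92, 7.13 and 6.86 on the keratinocyte-labelled arrays and 4.90, 4.38 and 4.80 on the MEF-labelled arrays, at least 1.50-fold higher. Col22a1, a chain of tissue junctions, differed by 0.57 (SE 0.16, limma adjusted p = 0.0114), and lost the call with the methods' t-test (adjusted p = 0.0621).

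The 3 chains of type IX collagen, the FACIT of cartilage, had small differences. Col9a1 was higher on the keratinocyte-labelled arrays, with 4.16, 4.47 and 4.45, against 3.85, 3.84 and 3.79 on the MEF-labelled arrays (difference 0.53, SE 0.11, limma adjusted p = 0.00219). Col9a3 did not pass, with 5.26, 5.95 and 5.45 on the keratinocyte-labelled arrays and 5.15, 5.16 and 5.13 on the MEF-labelled arrays (difference 0.41, SE 0.17, limma adjusted p = 0.0532). Replicate 2 labelled keratinocytes lay apart from the other 2, and without it the difference was 0.21. Without replicate 1 labelled keratinocytes the difference was 0.55 and Col9a3 passed (limma adjusted p = 0.0140). Col9a3 also passed in settings that kept all arrays, such as median centring and the replicate number as a block. Col9a2 did not pass either, at 5.46, 5.51 and 5.44 on the keratinocyte-labelled arrays and 5.30, 5.28 and 5.27 on the MEF-labelled arrays (difference 0.19, SE 0.08, limma adjusted p = 0.0651), although the groups did not overlap, and it passed with median centring (0.0147), quantile normalization (0.0308) and the methods' t-test (0.00269). Col20a1 stood at 4.10, 4.00 and 3.83 on the keratinocyte-labelled arrays, against 4.02, 3.90 and 3.92 on the MEF-labelled arrays (difference 0.03, SE 0.10, limma adjusted p = 0.798), and was the collagen gene whose groups overlapped.

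Type VI collagen is assembled mainly from the products of Col6a1, Col6a2 and Col6a3. All 3 were above background on the keratinocyte-labelled arrays only, and were at least 7.46-fold higher there. Col6a3 stood at 9.94, 9.72 and 9.69 on the keratinocyte-labelled arrays, against 3.87, 3.41 and 3.37 on the MEF-labelled arrays (difference 6.24, SE 0.15, limma adjusted p = 7.55e-09). Col6a1 had 10.40, 10.05 and 10.01 on the keratinocyte-labelled arrays and 4.68, 4.38 and 4.23 on the MEF-labelled arrays (difference 5.72, SE 0.15). Col6a2, its neighbour on chromosome 10, had 9.25, 9.24 and 9.37 on the keratinocyte-labelled arrays and 4.07, 4.75 and 4.23 on the MEF-labelled arrays (difference 4.94, SE 0.17). The alternative chains Col6a5 and Col6a6, which also neighbour each other, on chromosome 9, were above background on no array. Their differences were 0.37 (SE 0.09) and 0.31 (SE 0.10), and neither call was stable. Col6a5 passed with a limma adjusted p of 0.00658 and lost the call with an intensity trend (0.0541) and with quantile normalization, where its difference was 0.16 (0.136). Col6a6 passed with a limma adjusted p of 0.0263 and lost the call without replicate 1 or 3 labelled MEFs and without replicate 2 or 3 labelled keratinocytes, where the adjusted p lay between 0.0624 and 0.0820, and also with the intensity trend (0.0712) and quantile normalization (0.0644).

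**Figure D2:**
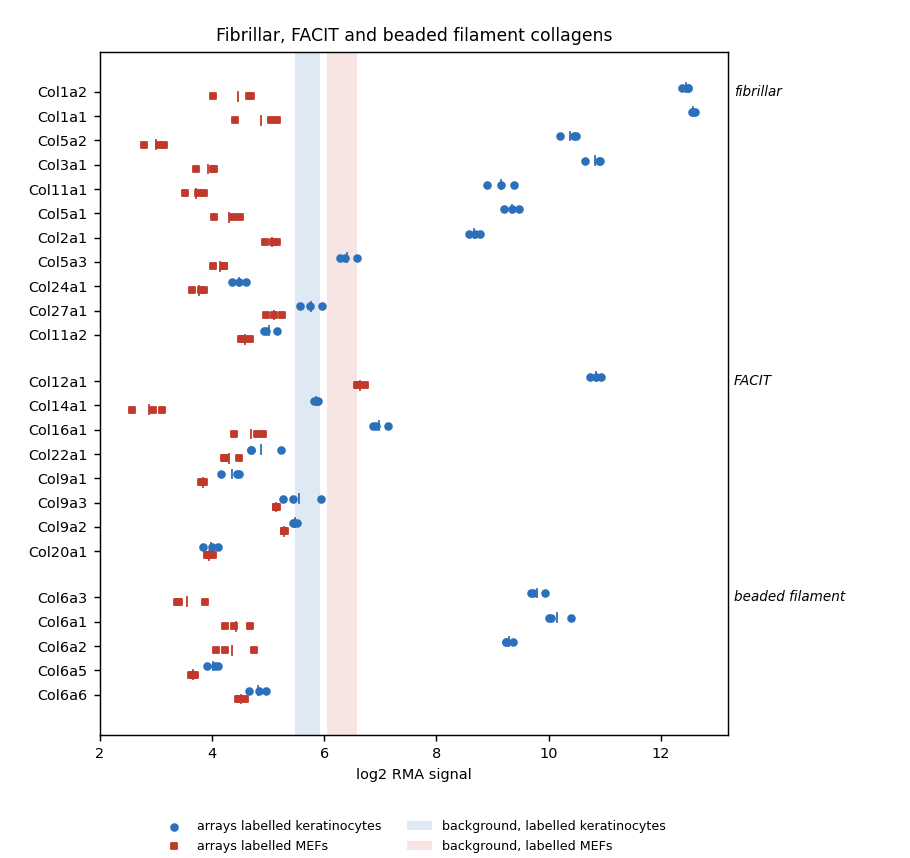
Log2 RMA signal (horizontal axis) of the fibrillar, FACIT and beaded filament collagens on the 3 keratinocyte-labelled arrays (blue circles) and the 3 labelled MEFs (red squares), with vertical ticks for group means and bands for the background level across the arrays of each label. Col1a1 and Col1a2 lie above 12 on the keratinocyte-labelled arrays and below 6 on the MEF-labelled arrays, and Col12a1 is the gene of these classes that lies above the bands in both groups.

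Type IV collagen, the sheet of basement membranes, is made by epithelia and by mesenchymal cells, mostly from the products of Col4a1 and Col4a2. These 2 genes lie next to each other on chromosome 8 on opposite strands, and the 300-base RefSeq windows around their starts share 78 bases. Col4a1 stood at 8.46, 8.51 and 8.35 on the keratinocyte-labelled arrays, against 7.19, 7.25 and 7.30 on the MEF-labelled arrays, 2.29-fold higher (difference 1.20, SE 0.09, limma adjusted p = 5.42e-06). Col4a2 had 8.56, 8.57 and 8.49 on the keratinocyte-labelled arrays and 7.83, 7.79 and 7.95 on the MEF-labelled arrays, 1.61-fold higher (difference 0.68, SE 0.09). Both were above background on all 6 arrays. The log2 ratio of Col4a1 to Col4a2 was -0.09, -0.06 and -0.13 on the keratinocyte-labelled arrays, against -0.64, -0.53 and -0.65 on the MEF-labelled arrays. The ratio was thus higher by 0.51 (SE 0.04) on the keratinocyte-labelled arrays, with no overlap (p = 0.1 in a two-sided exact permutation test, which cannot go lower, and 0.143 after Benjamini-Hochberg adjustment over 10 pairs of partner chains). In 7 of these 10 pairs, this one included, the ratios of the groups did not overlap. Col4a1 and Col4a2 were the only pair with both chains above background on all 6 arrays. For the others the ratio would involve signals under background.

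The other measured chains of type IV collagen were dim. Col4a5, a chain of specialised basement membranes such as those of the kidney, skin and muscle, had 6.16, 5.99 and 5.84 on the keratinocyte-labelled arrays and 5.51, 5.45 and 5.56 on the MEF-labelled arrays (difference 0.49, SE 0.10). Col4a4, known from the glomerular basement membrane, went against its class. It stood at 3.84, 4.03 and 3.83 on the keratinocyte-labelled arrays, against 4.24, 4.55 and 4.72 on the MEF-labelled arrays (difference -0.61, SE 0.13, limma adjusted p = 0.00363), and was above background on no array.

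The short-chain collagens of types VIII and X form hexagonal networks, in Descemet's membrane and vessel walls and in hypertrophic cartilage. All 3 measured chains were higher on the keratinocyte-labelled arrays, as were 32.9% of all genes. Col8a1 stood at 8.82, 8.85 and 8.94 on the keratinocyte-labelled arrays, against 7.00, 6.98 and 7.06 on the MEF-labelled arrays, 3.63-fold higher (difference 1.86, SE 0.09, limma adjusted p = 2.87e-07). Its partner Col8a2 had 6.00, 7.00 and 5.91 on the keratinocyte-labelled arrays and 3.83, 4.34 and 4.28 on the MEF-labelled arrays (difference 2.15, SE 0.28). Replicate 2 labelled keratinocytes was the high one. Col10a1 had 6.69, 7.02 and 7.51 on the keratinocyte-labelled arrays and 4.34, 3.40 and 3.85 on the MEF-labelled arrays, at least 1.61-fold higher (difference 3.21, SE 0.27), and as for Col2a1 the part of cartilage cells was not tested.

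The multiplexins of types XV and XVIII are collagens with heparan or chondroitin sulfate chains, placed in and beside basement membranes, and the 2 genes ran in opposite directions. Col18a1, whose product carries endostatin at its end, was lower on the keratinocyte-labelled arrays. It stood at 7.00, 7.17 and 7.09 there, against 8.96, 8.99 and 8.98 on the MEF-labelled arrays, where it was 3.70-fold higher (difference -1.89, SE 0.09, limma adjusted p = 2.90e-07). It was above background on all 6 arrays. Col15a1 had 4.79, 5.23 and 5.13 on the keratinocyte-labelled arrays and 3.67, 3.48 and 3.62 on the MEF-labelled arrays (difference 1.46, SE 0.13), with no array above background.

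Transmembrane collagens span the plasma membrane and reach into the matrix. Col17a1, the hemidesmosomal collagen, went against the other 3 of its class. It stood at 3.61, 3.99 and 4.10 on the keratinocyte-labelled arrays, against 10.35, 10.31 and 10.41 on the MEF-labelled arrays, where it was at least 25.3-fold higher (difference -6.46, SE 0.13, limma adjusted p = 3.79e-09). Its difference ranked 29 from the lowest of all genes. Col13a1, a collagen of adhesion sites and the neuromuscular junction, had 4.98, 5.21 and 4.94 on the keratinocyte-labelled arrays and 4.60, 4.45 and 4.69 on the MEF-labelled arrays (difference 0.46, SE 0.11). Col23a1 had 5.81, 5.85 and 5.59 on the keratinocyte-labelled arrays and 5.17, 5.39 and 5.09 on the MEF-labelled arrays (difference 0.53, SE 0.12). Col25a1, which is known from neurons, had 4.31, 4.75 and 4.27 on the keratinocyte-labelled arrays and 3.81, 3.63 and 3.63 on the MEF-labelled arrays (difference 0.75, SE 0.14). Of these 3, Col23a1 was above background on 2 keratinocyte-labelled arrays and the others on no array.

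Col7a1, the chain of the anchoring fibrils, ran the same way as Col17a1 with a smaller difference. It stood at 6.27, 6.37 and 6.27 on the keratinocyte-labelled arrays, against 7.61, 7.58 and 7.71 on the MEF-labelled arrays, where it was 2.51-fold higher (difference -1.33, SE 0.09, limma adjusted p = 2.59e-06). Unlike Col17a1 it was above background on all 6 arrays.

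**Figure D3:**
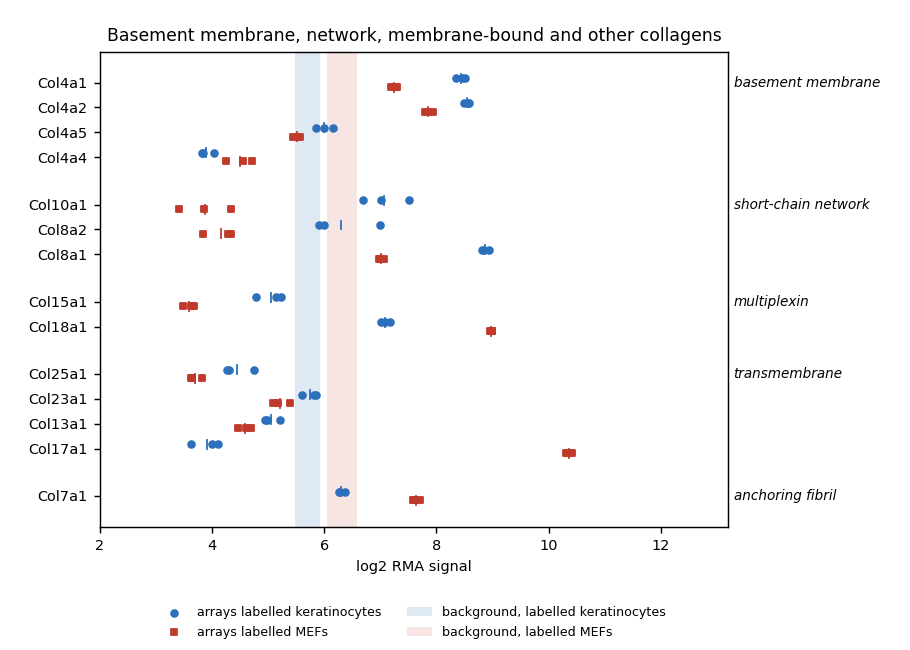
Log2 RMA signal (horizontal axis) of the basement membrane, short-chain network, multiplexin, transmembrane and anchoring fibril collagens on the 3 keratinocyte-labelled arrays (blue circles) and the 3 labelled MEFs (red squares), with vertical ticks for group means and bands for the background level across the arrays of each label. Col17a1 lies between 3.61 and 4.10 on the keratinocyte-labelled arrays and above 10 on the MEF-labelled arrays, and Col4a1, Col4a2, Col8a1 and Col18a1 lie above the bands on all 6 arrays.

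Genes that modify, export, cut, bind and degrade collagens were counted over whole lists. Inside the endoplasmic reticulum, prolyl and lysyl hydroxylases modify the chains and chaperones guide their folding. Of 15 such genes measured, 14 were higher on the keratinocyte-labelled arrays and 1 on the MEF-labelled arrays, beside 32.9% and 41.7% of all genes. The median difference of the list was 1.82, beside -0.12 over all genes. The highest were P4ha3, P4ha1 and P3h3, with differences of 5.58, 3.71 and 3.45. P4ha1, a catalytic subunit of prolyl 4-hydroxylase, stood at 9.71 ± 0.03 on the keratinocyte-labelled arrays and 6.00 ± 0.11 on the MEF-labelled arrays (SD, n = 3 each). The exception was P3h2, a prolyl 3-hydroxylase known to act on type IV collagen, with 5.28 ± 0.15 on the keratinocyte-labelled arrays and 8.39 ± 0.02 on the MEF-labelled arrays (SD, n = 3 each, difference -3.10, SE 0.10).

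Of 15 measured genes of secretion, propeptide cleavage and cross-linking, 12 were higher on the keratinocyte-labelled arrays and 2 on the MEF-labelled arrays. The shares of all genes were 32.9% and 41.7%. The remaining gene, Tll1, did not pass, and the median difference of the list was 2.02. Lox and Loxl1, enzymes that cross-link collagen and elastin, differed by 9.88 (SE 0.24) and 6.86 (SE 0.19), and Pcolce, an enhancer of propeptide cleavage, by 6.79 (SE 0.09). Against the list went Pcolce2, a relative of Pcolce, and Ctage5, a partner of the export receptor for large cargo, with differences of -2.26 (SE 0.19) and -0.46 (SE 0.15).

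Of 8 measured collagen receptors, 6 were higher on the keratinocyte-labelled arrays and 2 on the MEF-labelled arrays, beside 32.9% and 41.7% of all genes. The median difference of the list was 2.79. Among the 6, Itga10 was above background on no array and its groups overlapped (difference 0.44, SE 0.17, limma adjusted p = 0.0492). Ddr2, a receptor tyrosine kinase for fibrillar collagen, Itga11, an integrin chain of fibroblasts, and Mrc2, an uptake receptor, were higher on the keratinocyte-labelled arrays by 7.43, 6.85 and 5.90. Itga2, the chain of the collagen-binding integrin of epithelia and platelets, and Ddr1, the discoidin receptor of epithelia, were lower there. Itga2 averaged 3.37 ± 0.10 on the keratinocyte-labelled arrays and 7.37 ± 0.23 on the MEF-labelled arrays, and Ddr1 averaged 7.27 ± 0.05 on the keratinocyte-labelled arrays and 8.86 ± 0.10 on the MEF-labelled arrays (SD, n = 3 each). The 2 discoidin receptors thus differed in opposite directions. Of 7 collagen-degrading proteases listed, 4 were measured, and Mmp1a, Mmp8 and Mmp9 were not. All 4, Mmp13, Ctsk, Mmp2 and Mmp14, were higher on the keratinocyte-labelled arrays, as were 32.9% of all genes. Their median difference was 3.93.

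Of 8 measured partners of Col17a1 and Col7a1 at the dermo-epidermal junction, 6 were higher on the MEF-labelled arrays, where 41.7% of all genes were. On the keratinocyte-labelled arrays 2 were higher, beside 32.9% of all genes. The median difference of the list was -3.05. Lamb3, a chain of the laminin that binds anchoring fibrils, Itgb4 and Itga6, the integrin chains of hemidesmosomes, differed by -5.62 (SE 0.24), -5.37 (SE 0.13) and -4.81 (SE 0.10). Npnt, a basement membrane ligand of integrins, and Dst, a cytoskeletal linker, went the other way, by 1.90 (SE 0.18) and 0.64 (SE 0.09). Npnt was above background on only 1 array, labelled keratinocytes.

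**Figure D4:**
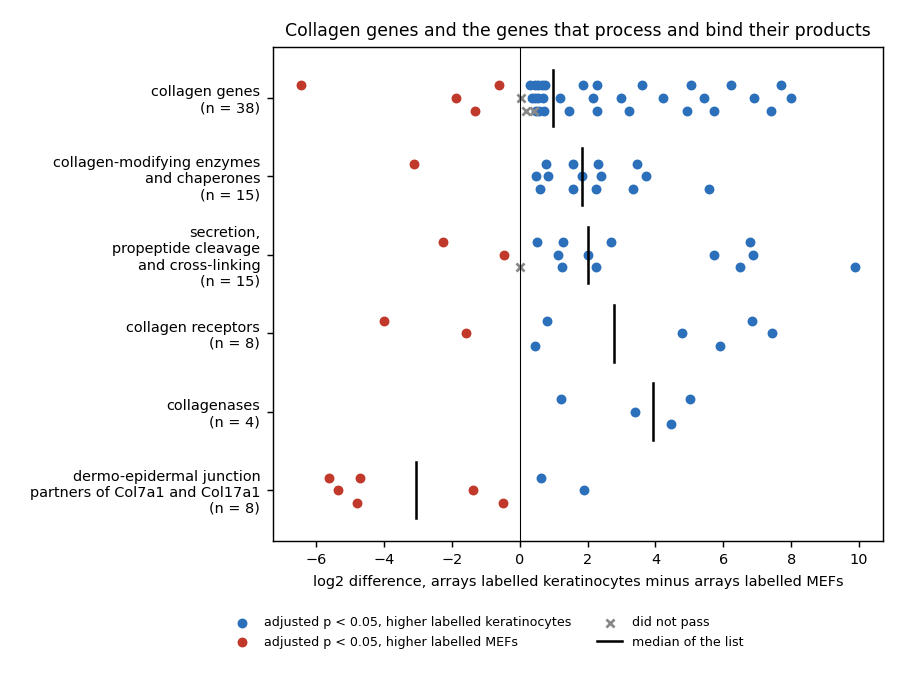
Log2 difference (horizontal axis, keratinocyte-labelled arrays minus MEF-labelled arrays, n = 3 each) of the 38 collagen genes and of 5 lists of genes that process, bind or anchor collagens, with a point for each gene, its colour for the call and a black line for the median of the list. The medians are 0.97, 1.82, 2.02, 2.79 and 3.93 from the collagen genes to the collagenases and -3.05 for the dermo-epidermal junction partners.

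Markers of other cells that make collagens were few on this table. Of smooth muscle markers, 4 of 4 were higher on the keratinocyte-labelled arrays, as were 32.9% of all genes. The log2 of the summed signal of these markers was 12.66 to 12.76 there, against 7.62 to 7.87 on the MEF-labelled arrays. Fibroblast markers, 8 of 8, had the same direction, and which cells gave the smooth muscle signal was not tested. Of 4 macrophage markers listed, only Cd68 was measured. It was at 4.64 ± 0.32 on the keratinocyte-labelled arrays and 8.56 ± 0.12 on the MEF-labelled arrays (SD, n = 3 each). Des of skeletal muscle, higher on the keratinocyte-labelled arrays, was above background on 1 of them. Kdr of endothelium, higher on the MEF-labelled arrays, was above it on no array. Of the 7 osteoblast, 5 melanocyte and 4 Schwann cell markers listed, 0 were measured. The part of such cells in the collagen values was not tested.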

How the data were processed

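RNA levels of 6 Affymetrix MoGene-1_0-st arrays, 3 for each label, were analysed. The log2 values of 15648 probe sets were used as deposited. Whether this table holds every probe set of the platform was not examined. Genes without a probe set of 1 symbol in it count as not measured, and shares of all genes are shares of the 10261 with one. Normalization by RMA with the oligo package is stated in the methods, and version 1.46.0 comes from the processing notes of the submitters; the link between this step and the deposited log2 table was inferred from the range of its values. RMA brings arrays to a common distribution and compresses dim signals, so that small differences may be understated. The methods name no genome build for the arrays. Precision was limited by the number of arrays.

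Gene names came from the annotation table of the platform: 11288 had 1 symbol, 645 had several and 3715 had no entry. Of the 11288, 11274 were matched to RefSeq genes (GRCm38.p6). Each collagen gene had 1 probe set, and other genes were represented by their brightest. Differences were fitted in limma 3.58.1 (R 4.3.3), with lmFit followed by eBayes and no block. On simulated data with 200 of 11288 probe sets changed, the fit recovered 86% of log2 changes of 1 and 99% of changes of 2. Of its calls, 4.1% were false. In the real comparison 74.5% of genes were called, so these rates need not hold there.

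The collagen genes, classes, lists and alternatives were chosen with earlier results of these data known. Per-array values were planned for up to 3 genes with the largest differences in each class, for partner chains, for genes against their class and for genes that did not pass; those of the other collagen genes were added after they were seen. Of the other lists, up to 3 members with the largest differences and those against most of the list were to be named; other markers were named after their values were seen. Protein sequences were not used here. The alternatives were a replicate block, single arrays left out, median centring, quantile normalization and filters on low signal. Others were a trend on intensity combined with robust eBayes, weighted arrays and a Student's t-test. Averaged or unselected probe sets, a minimum log2 difference of 1 and other background levels were also used. The methods name limma for the arrays, and the t-test was run here on each probe set with Benjamini-Hochberg adjustment.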

Additional observations from a re-analysis of the deposited data

How the results depend on the processing

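Of the 38 collagen genes, 32 kept their direction and their side of the threshold in each of the 17 alternatives in which they were tested, a minimum difference aside; the others were Col6a5, Col6a6, Col9a2, Col9a3, Col20a1 and Col22a1. The count of collagen genes higher on the arrays labelled keratinocytes, 31, was 19 of 22 tested with probe sets above background on fewer than 3 arrays left out and 14 of 17 with those below the median left out, where fewer genes were tested, and 19 with a minimum log2 difference of 1. The count higher on the arrays labelled MEFs, 4, was 3 in these settings. With single arrays left out the counts were 30 to 32 and 4. Over all genes, the counts of 3371 and 4278 were 1734 and 2542 with those below the median left out, and 1442 and 1476 with the minimum difference. Col20a1, which was not called, changed sign to -0.14 with quantile normalization and to -0.031 without replicate 1 labelled keratinocytes, with a range of -0.031 to 0.10 over single arrays left out; the cause was not tested. Median centring moved the median difference of all genes from -0.12 to -0.02, and the collagen counts were then 33 and 4. With the replicate number as a block the counts were 31 and 4, with Col9a3 gaining and Col6a6 losing its call; same-numbered arrays did not deviate together (correlations of -0.23, -0.21 and -0.03), so the numbers were not taken to pair them. The 12 collagen genes above background on no array were 3 against the median of the olfactory receptor probe sets, 17 against the median of all probe sets, and 11 with Olfr1174 left out, a level chosen after seeing the data. Without Olfr1174, the bounds on the arrays labelled keratinocytes rose to 148-fold for Col1a1 and 135-fold for Col1a2. Low signal over background limits what the 12 genes under it can show.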
